A study of Rattus norvegicus with 9 samples.

Results

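Prostaglandins are lipid mediators made from arachidonic acid. Cyclooxygenases, encoded by Ptgs1 and Ptgs2, make a common precursor, and terminal synthases turn it into single products: Ptges makes prostaglandin E2 (PGE2), Ptgds makes prostaglandin D2 and Tbxas1 makes thromboxane. PGE2 acts through the receptors encoded by Ptger1, Ptger2, Ptger3 and Ptger4, and Hpgd encodes the dehydrogenase that starts its breakdown. In the kidney, PGE2 is known for its effects on renin release, medullary blood flow and the handling of salt and water in the thick limb and collecting duct.

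These 10 genes were followed in kidney RNA of 3 inbred rat strains, with 3 male rats and 3 arrays per strain. Dahl salt-sensitive rats (Dahl S) become hypertensive when fed salt, Dahl salt-resistant rats (Dahl R) were bred to withstand it, and the spontaneously hypertensive rat (SHR) becomes hypertensive without added salt; no blood pressure is given for these animals. All rats shared a day of birth, were weaned at 30 days and from then on ate chow holding 0.3% salt. Their labelled age is 53 days. No group received a salt load, so the comparisons concern strains under a low-salt diet, and the labels name no separate litters or preparation days, so p-values measure the spread between these samples.

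The members were the probes whose RefSeq identifier, without its version, belongs to 1 of the 10 symbols, out of 13903 genes matched in this way. A probe was matched for 9 of them, each with 1 spot per array. No probe was matched for Ptger1, so it was not analysed here. Of the 9, 8 passed the filter on dim probes, which asks for detection above background on 3 or more arrays, and Ptger2 did not pass it on any array. Levels below are log2 signals relative to the 75th percentile of the array, so a level of 0 equals that percentile. They compare strains for 1 gene and not genes with each other. Summed marker levels below add the signals of probes with a value on all arrays, so bright probes weigh most. Such sums are not a measure of cell number.

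SHR replicate 3 stood apart from the other arrays. There 43.1% of probes were well above background, against 60.1% to 70.3% elsewhere, its median local background was 88 against 43 to 45, and the lowest signal well above background lay at -2.47, against -7.05 to -5.62 elsewhere. Values of dim genes on that array are therefore not comparable in precision with the rest. For some genes and for the counts, results are also given without it. Kidney markers were present: all 6 proximal tubule, all 6 collecting duct and all 4 podocyte genes with a probe were well above background on every array. Detection was incomplete in some other lists. In each strain, 2 of 3 thick limb and macula densa genes reached this on all arrays, as did 2 of 3 endothelial genes. In whole tissue, fewer cells of a type and less RNA per cell cannot be told apart.

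Hpgd, the enzyme of prostaglandin breakdown, separated all 3 strains. Its level was -1.43, -1.99 and -2.06 in the Dahl S rats, -0.39, -0.28 and -0.07 in the Dahl R rats, and 0.66, 0.88 and 1.09 in the SHR. No value of one strain overlapped another, and the order was Dahl S, then Dahl R, then SHR, with means of -1.83 ± 0.35, -0.25 ± 0.16 and 0.88 ± 0.22 (SD, n = 3 each). Hpgd was 2.99-fold lower in Dahl S than in Dahl R (log2 difference -1.58 ± 0.20, SE, adjusted p = 0.0101 by limma). It was 6.51-fold lower in Dahl S than in SHR (-2.70 ± 0.20, adjusted p = 0.000151). SHR exceeded Dahl R by 2.18-fold (1.12 ± 0.20, adjusted p = 0.00976). The 3 comparisons share animals, so they are not separate evidence of the order.

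The threshold for these calls was an adjusted p of 0.05 over all 16592 tested probes. For Dahl S against Dahl R, 1.40% of tested probes passed it (0.705% higher and 0.699% lower in Dahl S), and Hpgd was the 1 member of 8 that did, at rank 85 by p-value. For Dahl S against SHR, 15.7% of probes and 4 of the 8 members passed. For SHR against Dahl R, 13.0% of probes and 3 of the 8 members passed. The strains did not overlap for 5, 4 and 3 of the 8 members, beside 31.1%, 37.9% and 38.7% of probes. The median log2 difference of the 8 members was 0.16, -0.46 and 0.24 in these comparisons, beside 0.02, -0.09 and 0.11 over all tested probes. The members were chosen with earlier results of these data known, so these counts and medians do not test the set.

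The lower Hpgd signal of Dahl S against Dahl R kept its direction in all 21 processing alternatives and its call in 13, with adjusted p from 0.00356 to 0.367. The call was lost without Dahl S replicate 2 (-1.50, adjusted p = 0.0593), Dahl S replicate 3 (-1.46, 0.0553), Dahl R replicate 2 (-1.59, 0.0639) or Dahl R replicate 3 (-1.49, 0.0567). It was also lost under normexp (-1.20, limma adjusted p = 0.0872) and with outlier spots left out of the percentile (-1.60, 0.367). These settings also ended the call for SHR against Dahl R (0.96, 0.0506, and 1.42, 0.123). Each of them changed more than 1 step of the processing, as described below. Without SHR replicate 3, Hpgd passed in all 3 comparisons (limma adjusted p = 0.00589, 0.000258 and 0.0135), where 4.59%, 26.2% and 22.7% of probes passed. Arrays with the same scan date and time in the file headers were taken as 1 slide, and no slide label was used. In this grouping 1 slide held the 3 Dahl S arrays and Dahl R replicate 1. Another held Dahl R replicates 2 and 3 and SHR replicates 1 and 2, and SHR replicate 3 was scanned apart from both. Within the first slide Hpgd differed by -1.43 between Dahl S and the 1 Dahl R array, and within the second by 0.95 between 2 SHR and 2 Dahl R arrays. With slide as a block, adjusted p was 0.104 for Dahl S against Dahl R, 0.0214 for Dahl S against SHR (-2.38) and 0.0452 for SHR against Dahl R. No slide held both Dahl S and SHR, so here and below the blocked Dahl S against SHR value runs through Dahl R. On the first slide it has only Dahl R replicate 1, and SHR replicate 3, alone in its group, adds nothing. Of 6 proximal tubule markers, 0 passed between Dahl S and Dahl R or between SHR and Dahl R by limma, and 1 exceeded SHR in Dahl S. Of 6 collecting duct markers, 0 passed between Dahl S and Dahl R, 3 were lower in Dahl S than in SHR and 3 were higher in SHR than in Dahl R. The part of either cell type in the Hpgd differences was not tested.

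**Figure D1:**
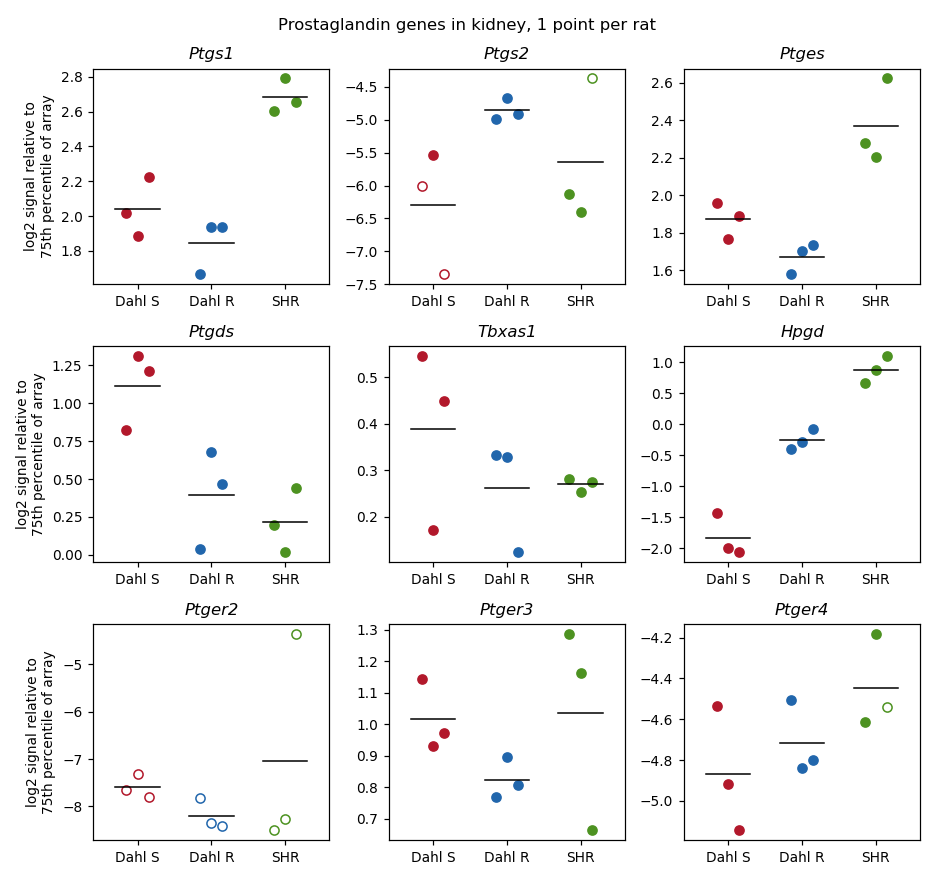
Log2 signal relative to the 75th percentile of the array (vertical axes, which differ between panels and do not start at 0) for the 9 members with a probe, by strain. Each point is 1 rat, open points were not well above background, and bars are means; Hpgd separates the 3 strains, Ptgs1 and Ptges are highest in the 3 SHR, and Ptger2 has no filled point.

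The sequence in front of Hpgd shows the reference setting of the member with the largest strain difference among the 8 tested. The 250 bases before its start, from RefSeq on GRCr8 (chr16:39034832-39035081, minus strand), were searched on both strands for the TATA box TATAAA, the GC box GGGCGG, the CCAAT box CCAAT and the E-box CACGTG. Capitals mark the only match, a GC box on the opposite strand that begins 99 bases before the start.
Hpgd: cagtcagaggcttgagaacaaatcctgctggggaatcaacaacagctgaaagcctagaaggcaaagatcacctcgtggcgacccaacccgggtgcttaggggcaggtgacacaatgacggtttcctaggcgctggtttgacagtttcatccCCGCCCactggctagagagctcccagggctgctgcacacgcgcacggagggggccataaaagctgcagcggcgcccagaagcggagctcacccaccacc
A GC box occurred in 30.5% of 33469 rat promoter windows of this length, a TATA box in 12.9%, a CCAAT box in 34% and an E-box in 5.59%. No match says only that these letters are not in the window, and the reference is not the sequence of the 3 strains.

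The cyclooxygenase Ptgs1, the form that most cells make constantly, was highest in SHR. Its level was 2.02, 1.89 and 2.23 in Dahl S, 1.67, 1.94 and 1.94 in Dahl R, and 2.61, 2.79 and 2.66 in SHR. All 3 SHR values lay above all 6 Dahl values, while Dahl S and Dahl R overlapped. Ptgs1 was 1.56-fold lower in Dahl S than in SHR (-0.64 ± 0.13, SE, limma adjusted p = 0.0140) and 1.79-fold higher in SHR than in Dahl R (0.84 ± 0.13, adjusted p = 0.00534). Dahl S and Dahl R differed by 0.20 ± 0.13 (adjusted p = 0.711), with a 95% interval from -0.10 to 0.49. Over the alternatives, adjusted p ran from 0.00702 to 0.390 against Dahl S and from 0.00214 to 0.122 against Dahl R. Without Dahl S replicate 2 the first difference no longer passed (-0.56, adjusted p = 0.0579), and with slide as a block it was -0.38 (adjusted p = 0.390). Within the slide that held SHR and Dahl R arrays, SHR exceeded Dahl R by 0.76.

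Ptgs2, the inducible cyclooxygenase that the kidney makes in the macula densa and medullary interstitium, was dim. Its level was -6.01, -5.53 and -7.35 in Dahl S, -4.98, -4.67 and -4.91 in Dahl R, and -6.14, -6.41 and -4.37 in SHR. It was well above background on 1 of 3 Dahl S, 3 of 3 Dahl R and 2 of 3 SHR arrays, the exception being SHR replicate 3, whose higher value lies below the detection level of that array. All Dahl S values lay below all Dahl R values, as did the values of 31.1% of tested probes in 1 direction or the other. The difference of -1.45 ± 0.61 (SE) did not pass (limma adjusted p = 0.464, and 0.119 without SHR replicate 3, in a range from 0.119 to 1.00), and it turned to 0.84 under another background correction, normexp. Against Dahl R, SHR differed by -0.79 ± 0.61 with SHR replicate 3 (adjusted p = 0.445) and by -1.42 without it (0.0778).

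Ptges, the inducible PGE2 synthase that works with the cyclooxygenases, had the same order of strain means as Ptgs1. Its level was 1.96, 1.77 and 1.89 in Dahl S, 1.58, 1.70 and 1.73 in Dahl R, and 2.28, 2.20 and 2.62 in SHR. The 3 strains did not overlap, and SHR replicate 3 gave the highest value. Ptges was 1.62-fold higher in SHR than in Dahl R (0.70 ± 0.13, SE, limma adjusted p = 0.0123, from 0.00519 to 0.256 over the alternatives). It was 1.41-fold lower in Dahl S than in SHR (-0.50 ± 0.13, adjusted p = 0.0381, from 0.0221 to 0.470). The second call was fragile: it held in 7 of 21 alternatives and was lost without any 1 of the Dahl S or Dahl R arrays (adjusted p = 0.0596 to 0.130). The first was lost without Dahl R replicate 1 (0.65, adjusted p = 0.0545) or Dahl R replicate 2 (0.71, 0.0508). Without SHR replicate 3 the differences were 0.57 and -0.37, and both passed. With slide as a block they were 0.52 (adjusted p = 0.0182) and -0.23 (0.470). Dahl S and Dahl R differed by 0.20 ± 0.13 and did not pass (adjusted p = 0.707).

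The reference promoters of Ptgs1 and Ptges, both higher in SHR, are shown for comparison. They lie on chromosome 3, at chr3:39981169-39981418 on the plus strand and chr3:34586988-34587237 on the minus strand (GRCr8, RefSeq). The same 4 motifs were searched, and capitals mark the only match, a GC box in Ptges that begins 87 bases before the start.
Ptgs1: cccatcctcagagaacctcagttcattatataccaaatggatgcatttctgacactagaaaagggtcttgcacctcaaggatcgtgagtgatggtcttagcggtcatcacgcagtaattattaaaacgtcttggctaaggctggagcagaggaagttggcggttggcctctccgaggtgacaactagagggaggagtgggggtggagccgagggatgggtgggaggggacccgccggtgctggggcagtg
Ptges: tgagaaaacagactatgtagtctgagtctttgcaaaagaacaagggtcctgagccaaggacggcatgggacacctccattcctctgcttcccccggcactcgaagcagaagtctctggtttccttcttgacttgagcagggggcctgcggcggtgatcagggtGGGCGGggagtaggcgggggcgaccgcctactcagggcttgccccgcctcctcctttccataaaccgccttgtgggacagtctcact
No motif was found in both windows.

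Ptgs1 and Ptges are made in the collecting duct and medullary interstitium, among other places. Of 6 collecting duct markers measured, 3 were higher in SHR than in Dahl R and 0 lower, and 3 were lower in Dahl S than in SHR and 0 higher. Between SHR and Dahl R the 6 differed by 0.06 (Aqp3), 0.37 (Avpr2), 0.58 (Slc14a2), 0.64 (Aqp2), 1.29 (Aqp4) and 1.49 (Scnn1b), of which the last 3 passed. The summed level of the 3 markers usable on all arrays, as a multiple of the 75th percentile, was 71.8 to 93.0 in Dahl S, 69.7 to 93.8 in Dahl R and 111 to 135 in SHR, with Aqp2, the vasopressin-regulated water channel, at 95.6% to 98.2% of it, and all 6 were well above background on every array. The part of this in the Ptgs1 and Ptges differences was not tested.

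Ptgds, the lipocalin-type prostaglandin D2 synthase, ran the other way and was highest in Dahl S. Its level was 0.82, 1.31 and 1.21 in Dahl S, 0.04, 0.68 and 0.47 in Dahl R, and 0.20, 0.02 and 0.44 in SHR. All Dahl S values lay above the other 6, and Dahl R and SHR overlapped. Ptgds was 1.86-fold higher in Dahl S than in SHR (0.90 ± 0.21, SE, limma adjusted p = 0.0249, from 0.0142 to 0.406 over the alternatives). The call was lost without Dahl S replicate 2 (0.80, adjusted p = 0.0923), Dahl S replicate 3 (0.85, 0.0849), SHR replicate 1 (0.89, 0.0509) or SHR replicate 2 (0.79, 0.0678). With slide as a block the difference was 1.54 (limma adjusted p = 0.0396), reached on the first slide through Dahl R replicate 1, the lowest Dahl R value. Against Dahl R it was 0.72 ± 0.21 and did not pass (adjusted p = 0.212). Of 4 fibroblast markers measured, 1, the matrix proteoglycan Dcn, was also higher in Dahl S in both comparisons (1.78 against SHR and 1.86 against Dahl R). The other 3 did not pass, at -0.01 for Pdgfra, -0.04 for Pdgfrb and 0.06 for Lum against SHR. The summed level of 3 of the 4 was 43.2 to 64.1 in Dahl S, 19.3 to 23.4 in Dahl R and 19.8 to 27.4 in SHR, and Dcn made up 74.8% to 76.7% of it in Dahl S. The part of Dcn-expressing cells in the Ptgds difference was not tested.

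Tbxas1, the thromboxane synthase of platelets and macrophages, overlapped between all strains. Its level was 0.55, 0.17 and 0.45 in Dahl S, 0.33, 0.33 and 0.12 in Dahl R, and 0.28, 0.25 and 0.28 in SHR. The 95% intervals of the differences were -0.15 to 0.40 for Dahl S against Dahl R, -0.16 to 0.40 for Dahl S against SHR and -0.27 to 0.28 for SHR against Dahl R, so a shift of more than 0.40 in size lies outside each.

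Of the PGE2 receptors, Ptger3, which lowers cyclic AMP and is known in the thick limb and collecting duct, was well above background on all 9 arrays. Its level was 1.14, 0.93 and 0.97 in Dahl S, 0.77, 0.90 and 0.81 in Dahl R, and 1.29, 1.16 and 0.66 in SHR. The Dahl S values lay above the Dahl R values, but no comparison passed (adjusted p = 0.811, 0.940 and 0.440 by limma). SHR replicate 3 gave the lowest value of all 9 arrays. Without it, Ptger3 was higher in SHR than in Dahl R by 0.40 (limma adjusted p = 0.0230), against 0.21 ± 0.16 (SE) with it, so this result rests on 1 array, with adjusted p from 0.0230 to 0.927 over the alternatives. Of the thick limb and macula densa markers 2 were tested, Umod and Cldn16, both of the thick limb. Nos1, the macula densa marker of the list, was not tested. Cldn16 ran opposite to the collecting duct markers that passed. Its difference was -1.29 for SHR minus Dahl R (limma adjusted p = 0.00168) and 1.31 for Dahl S minus SHR (0.00131). The other, Umod, did not pass, at 0.17 and -0.16. Their part in the Ptger3 and Ptgs2 values was not tested.

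Ptger4 and Ptger2, which raise cyclic AMP, were dim. Ptger4 was at -4.54, -4.92 and -5.15 in Dahl S, -4.51, -4.84 and -4.80 in Dahl R, and -4.62, -4.18 and -4.54 in SHR. The strains overlapped, SHR replicate 3 was not well above background, and no difference passed (limma adjusted p = 0.906, 0.179 and 0.404). Ptger2 was not well above background on any of the 9 arrays, at -8.51 to -7.33 on 8 of them and -4.36 on SHR replicate 3, and no difference between strains could be measured.

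**Figure D2:**
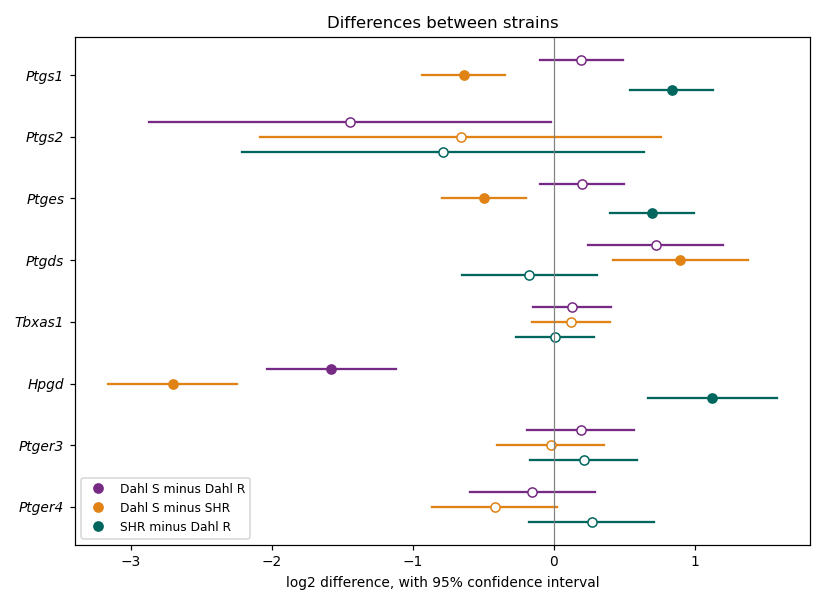
Log2 differences of the 8 tested members (horizontal axis) in the 3 strain comparisons, which share animals, with 95% confidence intervals; filled points passed an adjusted p of 0.05. Hpgd is filled in all 3, Ptgs1 and Ptges in the 2 with SHR, and Ptgds for Dahl S minus SHR only; the widest intervals are those of Ptgs2.

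Other genes of the pathway, 40 in all, were taken from a list of arachidonic acid release, synthesis, receptors, transport and breakdown, and leukotrienes. A probe was matched for 37, and 29 were tested. Between Dahl S and Dahl R, 0 of 29 passed by limma, beside 1.40% of all probes, with 3 at an unadjusted p under 0.05, and 1 passed without Dahl R replicate 3. Between Dahl S and SHR 3 were higher in Dahl S, 4 lower and 22 did not pass, beside 7.08% and 8.62% of all probes. Between SHR and Dahl R 2 were higher in SHR, 3 lower and 24 did not pass, beside 7.56% and 5.49% of all probes. Without SHR replicate 3 the counts that passed were 0, 13 and 10, beside 4.59%, 26.2% and 22.7% of all probes. The count for Dahl S against SHR was 4 without any 1 of the Dahl S arrays, and that for SHR against Dahl R was 2 or 3 without any 1 of the Dahl R arrays, Dahl S replicate 2 or Dahl S replicate 3. Over all probes, 1317 to 1774 passed in the first case in place of 2605, and 966 to 1579 in the second in place of 2165. The medians of the 29 differences were -0.01, 0.02 and 0.03.

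Mgll, the lipase that frees arachidonic acid from the endocannabinoid 2-arachidonoylglycerol, showed the largest difference of the list. Its level was 4.17, 3.24 and 3.49 in Dahl S, 3.17, 2.81 and 2.39 in Dahl R, and 0.18, -0.83 and 0.15 in SHR. All SHR values lay far below the Dahl values. Mgll was 13.9-fold higher in Dahl S than in SHR (3.80 ± 0.36, SE, limma adjusted p = 0.000511) and 7.76-fold lower in SHR than in Dahl R (-2.96 ± 0.36, adjusted p = 0.00197), and both calls held in all 21 alternatives. Mgll is abundant in fat, and 0 of 3 tested fat cell markers passed by limma, at -0.80 for Adipoq, -0.88 for Fabp4 and -0.45 for Cidec between Dahl S and SHR. Their summed level, mostly Cidec, was 11.6 to 19.5 in Dahl S, 18.9 to 22.5 in Dahl R and 17.2 to 24.4 in SHR, and the fourth was not well above background on any array. The part of fat in the Mgll difference was not tested. Among phospholipases, Pla2g4a, the cytosolic enzyme that supplies cyclooxygenases, differed by 0.02 ± 0.12 between Dahl S and SHR (95% interval -0.25 to 0.30), and Pla2g6 by 0.27 ± 0.41. The Pla2g6 value rests on SHR replicate 3, at -0.06 beside 1.59 and 1.51 in the other SHR, and without it the difference turned to -0.27 and did not pass. The secreted Pla2g2d was 2.07-fold lower in Dahl S than in SHR (-1.05 ± 0.17, adjusted p = 0.00716) and Pla2g5 3.20-fold lower (-1.68 ± 0.38, adjusted p = 0.0231); Pla2g5 no longer passed without any 1 of the Dahl S arrays (adjusted p = 0.0653 to 0.0776).

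Among the synthases, Hpgds, the haematopoietic prostaglandin D2 synthase of mast cells and other leukocytes, was highest in SHR. For Dahl S against SHR, Hpgds ran opposite to Ptgds. Its level was -4.17, -4.32 and -4.41 in Dahl S, -4.56, -4.78 and -4.67 in Dahl R, and -2.97, -2.58 and -2.21 in SHR, where SHR replicate 3 was not well above background. Hpgds was 3.28-fold lower in Dahl S than in SHR (-1.71 ± 0.19, SE, limma adjusted p = 0.00103) and 4.25-fold higher in SHR than in Dahl R (2.09 ± 0.19, adjusted p = 0.000469), and both calls held without SHR replicate 3. Under normexp the differences were -0.46 and 1.65, and neither passed (adjusted p = 0.675 and 0.218, from 0.000185 over the alternatives). Mast cell markers were summed at 0.461 to 0.646 in Dahl S, 0.576 to 0.680 in Dahl R and 0.782 to 1.15 in SHR. Those well above background on all arrays of the strain were 4 of 5 in Dahl S, 5 in Dahl R and 3 in SHR. Of 5, Cma1, the chymase, and Kit were higher in SHR than in Dahl R, and Cma1 alone passed against Dahl S. Their part in the Hpgds difference was not tested. Prxl2b, a prostaglandin F synthase, was 1.74-fold higher in Dahl S than in SHR (0.80 ± 0.20, adjusted p = 0.0306) and 1.75-fold lower in SHR than in Dahl R (-0.81 ± 0.20, adjusted p = 0.0346); the first call was lost without any 1 of the Dahl S or Dahl R arrays (adjusted p = 0.0532 to 0.0923), and the second without any 1 of the Dahl R arrays, Dahl S replicate 2 or 3, or SHR replicate 1 (0.0531 to 0.117). Ptges3, fitted with 2 SHR arrays, and Cbr1 passed in no comparison; without SHR replicate 3, Ptges3 was higher in Dahl S than in SHR (0.42, adjusted p = 0.0223).

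Slco2a1, the transporter that takes prostaglandins up before Hpgd oxidises them, was also high in SHR. Its level was -3.66, -3.90 and -3.54 in Dahl S, -3.63, -3.69 and -3.59 in Dahl R, and -2.10, -2.19 and -3.16 in SHR. SHR replicate 3, the lowest SHR value, was not well above background. Slco2a1 was 2.32-fold lower in Dahl S than in SHR (-1.21 ± 0.27, SE, limma adjusted p = 0.0206) and 2.22-fold higher in SHR than in Dahl R (1.15 ± 0.27, adjusted p = 0.0295). Without SHR replicate 3 the adjusted p was 0.000189 and 0.000254. The first call was lost without any 1 of the Dahl S arrays or SHR replicate 2 (adjusted p = 0.0511 to 0.0790), and the second without any 1 of the Dahl R arrays, Dahl S replicate 3, or SHR replicate 1 or 2 (0.0507 to 0.104). Endothelial markers, a site of this transporter, were summed at 9.83 to 11.2 in Dahl S, 10.04 to 10.28 in Dahl R and 12.0 to 16.0 in SHR, with Tek at 78.1% to 85.8% of the sum, and Tek alone of the 3 was lower in Dahl S than in SHR; their part was not tested. The later breakdown enzymes Ptgr1 and Ptgr2 passed in no comparison, with Ptgr1 at -0.67 ± 0.19 between Dahl S and SHR (adjusted p = 0.0556). Without SHR replicate 3 Ptgr1 was lower in Dahl S than in SHR (-0.43, adjusted p = 0.0146) and higher in SHR than in Dahl R (0.33, 0.0428). Abcc4 had no matched probe.

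Of the other prostanoid receptors, 3 were tested and passed in no comparison. Tbxa2r, for thromboxane, and Ptgir, for prostacyclin, differed by -0.14 to 0.32. Ptgdr2, the remaining one, was dim and differed by -1.05 ± 0.50 for Dahl S minus SHR (SE, limma adjusted p = 0.197). It was well above background on 1 of 3 Dahl S and 1 of 3 SHR arrays. Tbxa2r was at -2.46 and -2.41 in 2 SHR and at -4.29 in SHR replicate 3; without that array it was higher in SHR than in Dahl R (0.55, limma adjusted p = 0.0393), in place of -0.07. Ptgdr and Ptgfr were not well above background on any array, and neither were the leukotriene receptors Ltb4r, Ltb4r2, Cysltr1 and Cysltr2. Alox15, a lipoxygenase of macrophages, was at 0.57, 0.36 and 0.07 in Dahl S, -1.29, -0.97 and 0.23 in Dahl R, and -1.91, -2.14 and -1.75 in SHR. The SHR values lay below the rest, and Dahl R replicate 3 lay among the Dahl S values. Neither SHR against Dahl R (-1.26 ± 0.37, SE, limma adjusted p = 0.0631) nor Dahl S against Dahl R (1.01 ± 0.37, 0.363) passed. Alox15 was 4.81-fold higher in Dahl S than in SHR (2.27 ± 0.37, SE, limma adjusted p = 0.00636). Of 5 tested macrophage markers, 3 exceeded SHR in Dahl S, with summed levels of 27.1 to 32.3, 22.4 to 26.2 and 18.7 to 23.7 in Dahl S, Dahl R and SHR, mostly Csf1r, which was 1 of those 3, and their part in this difference was not tested. Alox12, the platelet form, was 1.47-fold lower in SHR, where replicate 3 was not well above background, than in Dahl R (-0.56 ± 0.13, adjusted p = 0.0311), and the call was lost without any 1 of the Dahl R arrays, Dahl S replicate 2 or Dahl S replicate 3 (adjusted p = 0.0551 to 0.115). Of 3 tested platelet markers 0 passed between SHR and Dahl R, at -0.72 for Pf4, 0.17 for Gp9 and 0.36 for Gp1ba, and 1 more was not well above background on any array. Their summed level was 1.55 to 1.80 in Dahl S, 1.07 to 1.48 in Dahl R and 0.581 to 1.18 in SHR, with Pf4 at 77.2% to 96.4% of it, and their part was not tested. Lta4h, fitted with 2 SHR arrays, and Alox5ap passed in no comparison; without SHR replicate 3, Alox5ap was higher in Dahl S than in SHR (0.63, adjusted p = 0.0122).

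The calls of Ptgs1, Ptges and Ptgds were all lost under normexp and with outlier spots left out of the percentile, in each comparison in which they had passed, with the direction kept. Under normexp Dahl S minus SHR was -0.72 for Ptgs1, -0.66 for Ptges and 0.78 for Ptgds, while SHR minus Dahl R was 0.78 for Ptgs1 and 0.68 for Ptges (limma adjusted p = 0.0824 to 0.151 over these). Several dim pathway genes shrank by more there. For Dahl S against SHR, Pla2g2d went to -0.58 (limma adjusted p = 0.403), Pla2g5 to -0.34 (0.772) and Slco2a1 to -0.43 (0.615). For SHR against Dahl R, Alox12 went to -0.16 (0.870). The normexp signals carry an added offset of 50, which by itself shrinks log2 differences of dim genes.

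**Figure D3:**
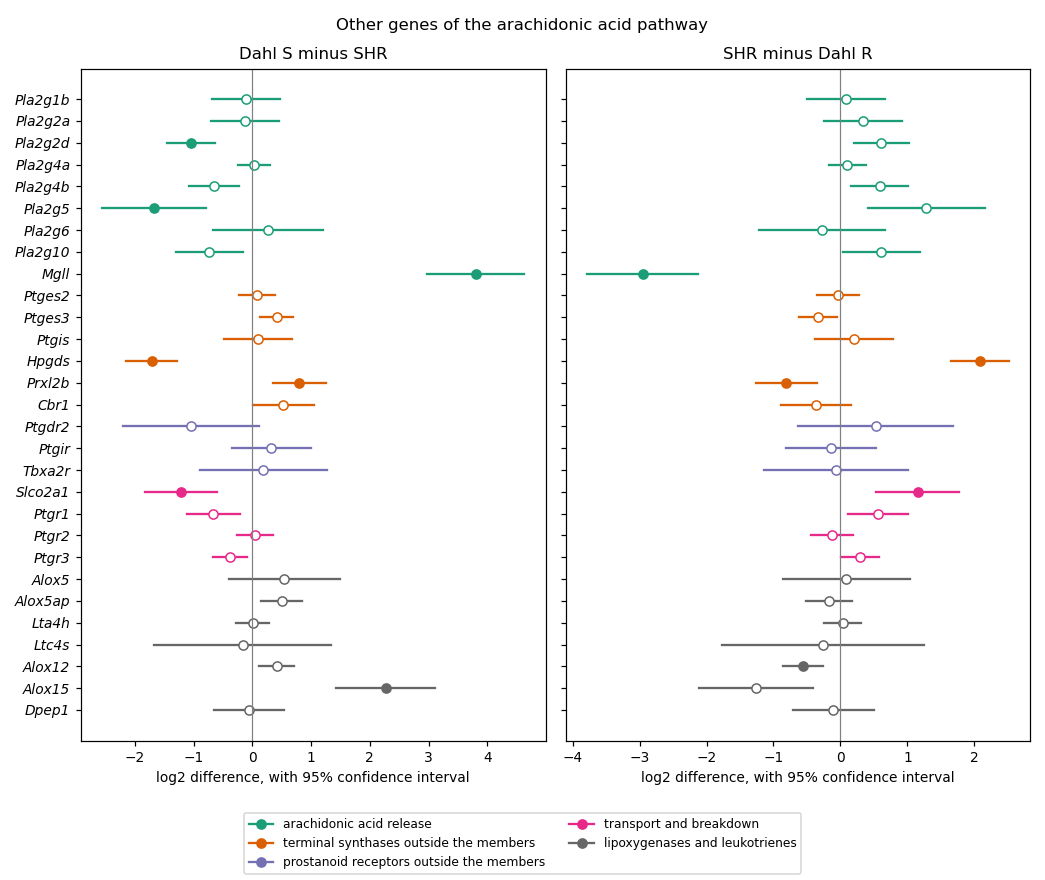
Log2 differences of the 29 tested pathway genes (horizontal axes, with 95% confidence intervals) for Dahl S minus SHR and SHR minus Dahl R, coloured by role; filled points passed an adjusted p of 0.05. Mgll lies farthest from 0 in both panels, and Hpgds lies on the opposite side of 0 from it in both.

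The genes whose values over the 9 arrays, centred on their mean, lay nearest to those of each called member were found among 9004 others, by the root mean square of the log2 difference. For Hpgd they were Syce1 (0.25), Mdfi (0.30) and Cma1 (0.33), where the median gene lay at 1.12. Mdfi averaged -0.69 in Dahl S, 0.38 in Dahl R and 1.49 in SHR. For Ptgs1 they were Myzap (0.066), Mycbpap (0.082) and Elf5 (0.088), beside a median of 0.44. For Ptges they were Sppl2b (0.062), Nbl1 (0.062) and Ctc1 (0.064), beside 0.38. For Ptgds they were Lancl1 (0.21), Lingo1 (0.21) and Prss22 (0.22), beside 0.55. The distances were not scaled to the spread of each member, so they do not compare members with each other. These are descriptions over 9 arrays that share strains and slides.

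**Figure D4:**
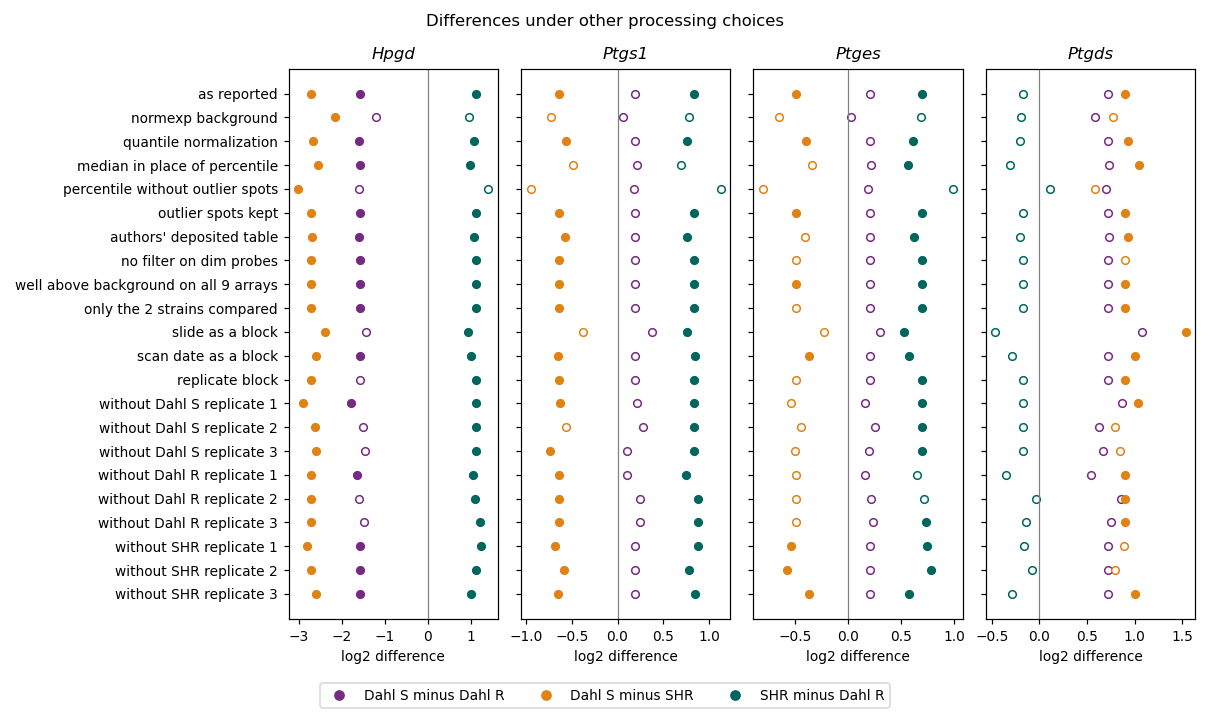
Log2 differences (horizontal axes) of the 4 members that passed in at least 1 comparison, under each processing choice (rows); filled points passed an adjusted p of 0.05. All Hpgd points keep their side of 0, and those for Dahl S minus SHR are filled in every row, while Ptges loses most of its Dahl S minus SHR calls.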

How the data were processed

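RNA from 9 kidneys was labelled with Cy3 from 1 μg each and put on one-colour Agilent arrays, 1 array per rat. Per the file headers and the submitters' processing notes, the authors deposited intensity values from Agilent Feature Extraction 10.5.1.1; the processed signal had been background-subtracted, detrended and floored, with no normalization between arrays. The authors also deposited a table for 19407 probes, read as log2 because it correlated with the log2 scanner signals at r of 0.973 to 0.998; its normalization and centring are unknown (column medians 9.63 to 9.64).

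Control spots were left out. The log2 of the 75th percentile of each array was subtracted, values of outlier spots were dropped, and repeated spots were averaged by probe. The filter kept probes with a share of 0.5 or more of their spots well above background on 3 or more arrays, and with a value in every strain, which left 16592 of 24684 probes. Strains were compared with limma 3.58.1 in R 4.3.3, with all 9 arrays in 1 fit and Benjamini-Hochberg adjustment over all tested probes, after the fit was tested on simulated data. The number of arrays limits the precision. Symbols come from RefSeq on GRCr8; probe sequences were not used, and whether strain sequences differ at a probe was not tested.

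The members and lists were chosen with earlier results of these data known. All members were named, then every pathway gene past the threshold, the 2 brightest others in each sublist, and the 3 genes nearest to each called member. Alternatives changed the background correction, normalization, percentile, outlier spots, filter, samples in the fit and blocks, used the authors' table, or left out 1 array. Normexp was run on the median spot signal in place of the processed signal, with an offset of 50 added. Where outlier spots were left out of the percentile, spots were first averaged by probe and the percentile was taken over probes. Detection flags of outlier spots were dropped there too, and these parts cannot be told apart.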

Additional observations from a re-analysis of the deposited data

How the results depend on the processing

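Hpgd kept its direction in all 3 comparisons under all 21 alternatives, and its call for Dahl S against SHR in all of them. Calls over all probes moved as well. For Dahl S against SHR, 2605 probes passed as reported, 550 under normexp and 601 without outlier spots in the percentile. With slide as a block 866 did, and with scan date 4371. In the same order, SHR against Dahl R had 2165, 416, 477, 2648 and 3792. Dahl S against Dahl R had 233, 43, 38, 164 and 761. Each count below is of genes past the threshold among those tested in that setting. As reported these were 8 members and 29 pathway genes, and other filters or fewer arrays changed which genes were tested. For Dahl S against Dahl R, 0 members passed in place of 1 under normexp, with the percentile taken without outlier spots, with slide as a block and with the replicate number as a block, and 0 to 1 on leaving out 1 array; of the pathway genes 1 passed in place of 0 with only the 2 strains in the fit and with slide as a block, and 0 to 1 on leaving out 1 array. For Dahl S against SHR, in place of 4 members 1 passed under normexp and without outlier spots in the percentile, 2 under median scaling, without a filter and with slide as a block, and 1 to 4 on leaving out 1 array; in place of 7 pathway genes 2 passed under normexp, 4 without outlier spots in the percentile, without a filter and with the replicate block, 13 with scan date as a block, and 4 to 13 on leaving out 1 array. For SHR against Dahl R, 0 members passed in place of 3 under normexp and without outlier spots in the percentile; in place of 5 pathway genes 1 passed under normexp, 2 without a filter, with only the 2 strains and with the replicate block, 9 with slide and 10 with scan date as a block, and 2 to 10 on leaving out 1 array.

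The replicate numbers are not shown to pair rats: same-numbered deviations correlated at -0.16 to 0.07, and with the replicate block Hpgd no longer passed for Dahl S against Dahl R (limma adjusted p = 0.0690). Differences that turned sign had not passed. Under normexp Ptgs2 and Ptger4 turned to 0.84 and 1.05 for Dahl S against Dahl R, and to 0.88 and 0.68 for Dahl S against SHR. Under quantile normalization Ptger3 turned to 0.050 and Ptger4 to 0.46 for Dahl S against SHR, and Tbxas1 to -0.0052 and Ptger4 to -0.60 for SHR against Dahl R; in the authors' table these were 0.039, 0.45, -0.00088 and -0.59. Median scaling turned Ptger3 to 0.13 for Dahl S against SHR and Tbxas1 to -0.13 for SHR against Dahl R. Leaving outlier spots out of the percentile turned Tbxas1 to -0.19 for Dahl S against SHR and Ptgds to 0.12 for SHR against Dahl R, and slide as a block turned Ptgs2 to 0.17 for Dahl S against SHR. On leaving out 1 array Ptger3 ran from -0.21 to 0.10 for Dahl S against SHR and Tbxas1 from -0.061 to 0.044 for SHR against Dahl R. That percentile also moved the median of all probes from -0.09 to -0.36 for Dahl S against SHR and from 0.11 to 0.36 for SHR against Dahl R. The cause of these changes was not tested. Signal over background limits Ptgs2, Ptger4 and Ptger2 most, and dim genes on SHR replicate 3.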
